A study of Homo sapiens with 6 samples.

Results

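The genes described here are the 10 members of the MYC, MAX and MXD network that were looked up by symbol in a table of 31966 genes: MYC, MYCN, MAX, MXD1, MXD3, MXD4, MXI1, MNT, MLX and MGA. Each symbol had a single row, and all 10 were among the 18486 genes that passed a filter on low counts. The RNA sequenced came from Kasumi-1, a long-established cell line from acute myeloid leukaemia that carries the RUNX1-RUNX1T1 fusion. In the control group (genotype Control, shLUC) the cells carried an inducible hairpin RNA against luciferase, and in the knockdown group (shFBL) a hairpin against FBL, which encodes fibrillarin, the methyltransferase that modifies ribosomal RNA at 2'-O positions. Both groups received doxycycline, which switches the hairpins on, at 100 ng/ml for 72 h, and each had 3 libraries. The labels name a single line and a single hairpin against FBL, so loss of FBL and any other action of that hairpin cannot be told apart.

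MYC is a transcription factor of the basic helix-loop-helix leucine zipper class that binds DNA as a dimer with MAX, preferably at the E-box CACGTG, and raises transcription of genes for ribosome production, metabolism and cell division. The MXD proteins, MNT and MGA also pair with MAX, compete for the same sites and recruit corepressors, so the output of the network depends on the balance between its dimers. MLX is a partner of a parallel branch, in which MondoA (encoded by MLXIP) drives genes that respond to glucose-derived metabolites. In myeloid cells MYC is linked to proliferation and the MXD genes to differentiation.

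The libraries held between 85556322 and 103148412 counts. FBL itself stood at 580, 550 and 544 CPM (counts scaled to library size) in the controls and at 54.0, 32.4 and 44.9 CPM in the knockdown, so every library matched its label. Markers of Kasumi-1 were present, with a summed level of 6 genes between 6872 and 8330 CPM in controls and between 5132 and 6142 CPM in the knockdown. Nearly all of that sum and of its difference was MPO, with a mean of 7254 CPM in controls and 5411 CPM in the knockdown. KIT (84.8 and 76.9 CPM) and CD33 (44.8 and 39.0) also had the lower mean in the knockdown. RUNX1 (89.7 and 99.5 CPM), RUNX1T1 (11.7 and 12.2) and CD34 (2.54 and 4.03) had the higher mean there. The erythroid, monocyte, and epithelial and stromal markers in the table each summed to at most 0.239 CPM in any library. The T cell list reached 6.69 CPM, nearly all from CD247, and the B cell list 1.78 CPM. The groups lay apart on the first principal component of log2 CPM (60.0% of the variance). On the second (17.9%), control replicates 1 and 2 lay at opposite ends (24.9 and -30.4), which bears on several values below. Nothing in the labels says that replicates came from separate cultures, so the tests measure the spread between these libraries, which may be technical. Counts of whole cultures do not separate fewer cells that express a gene from less RNA per cell.

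MYC was the most abundant transcript of the network per unit of gene length. It was slightly lower in the knockdown, MXD3 was slightly higher, and MYCN was higher at a level close to the limit of detection. Of the 10 members 2 rose (MYCN and MXD3), 1 fell (MYC) and 7 did not pass the test, the quasi-likelihood F test of edgeR at an adjusted p below 0.05. Over all tested genes the same test called 32.8%, with 15.8% higher and 17.0% lower, so the share of members called was near the background. The groups did not overlap for 6 members (MYC, MYCN, MAX, MXI1, MXD3 and MLX), where 45.2% of all tested genes did not overlap. The median log2 fold change of the members was 0.10, against -0.01 over all tested genes.

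Levels can be compared between genes only per unit of length, here as the deposited RPKM (reads scaled to gene length in kilobases and to library size). In the controls MYC led with 93.2 ± 9.9 RPKM (SD, n = 3), followed by MXD3 with 46.3 ± 2.5 and MXD4 with 41.1 ± 11.3. MXD3 and MXD4 did not differ beyond their spread, since the MXD4 values ran from 30.5 to 53.0 RPKM and enclosed those of MXD3. MLX came next with 23.4 ± 0.6 RPKM and MAX with 16.1 ± 0.5. MXI1 (2.01 ± 0.13 RPKM) and MNT (1.56 ± 0.23) were an order of magnitude lower. MXD1 (0.283 ± 0.038 RPKM), MGA (0.1001 ± 0.0185) and MYCN (0.0798 ± 0.0289) were barely expressed, and MGA and MYCN overlapped. In the knockdown the order was the same except that MYCN (0.212 ± 0.021 RPKM) stood above MGA (0.0815 ± 0.0106). The annotated exon bases of GENCODE release 29 equalled the length in the deposited table for each of the 10 members, so that release was used for their positions. This length covers all annotated transcripts (3001 bases for MYC, 5154 for MXD3 and 7058 for MXD4), and the order depends on it. In CPM, MXD4 (289) stood above MYC (279) in the controls. In the knockdown MXD4 (347) and MXD3 (290) stood above MYC (232).

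**Figure D1:**
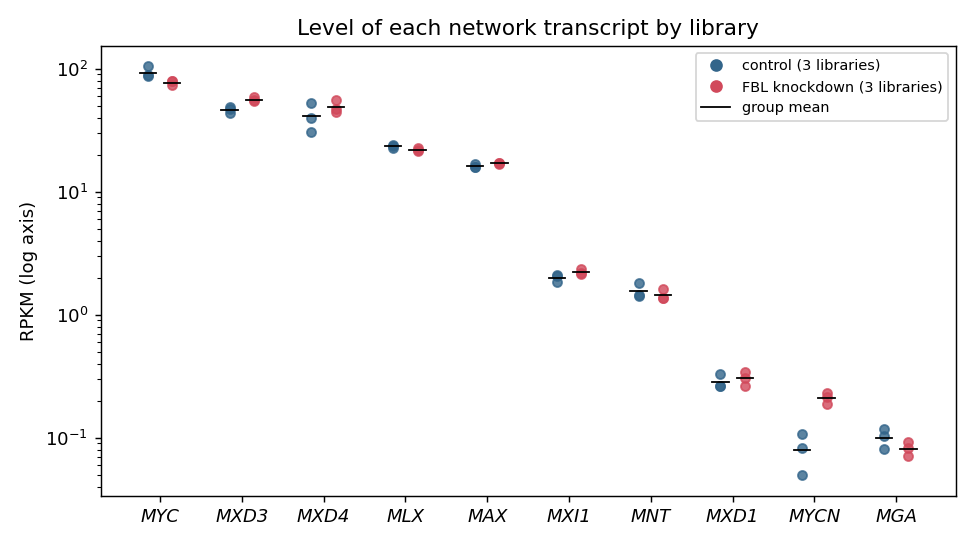
Deposited RPKM (log axis) of each network transcript in 3 control libraries (blue) and 3 FBL knockdown libraries (red), ordered by mean level, with a line at each group mean. MYC, MXD3 and MXD4 lie between 30.5 and 105 RPKM, and MYCN and MGA lie at or below 0.230 RPKM.

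The activators of the network are MYC and its paralogue MYCN. MYC (ENSG00000136997 in the files; GRCh38, chromosome 8, 127735434 to 127741434, plus strand) stood at 266, 312 and 259 CPM in the controls and at 233, 240 and 222 CPM in the knockdown. All knockdown libraries were below all controls, but only by a small margin, and control replicate 2 was the highest. The level was 279 ± 28.7 CPM in controls and 232 ± 9.2 CPM in the knockdown (SD, n = 3 each), so it was 1.21-fold lower (log2 fold change -0.27 ± 0.09, SE, edgeR adjusted p = 0.0426). This call was lost in 13 of 17 alternative settings, across which the adjusted p ranged from 0.0247 to 0.219 and the log2 fold change from -0.32 to -0.18. Without control replicate 2 the log2 fold change was -0.18 (adjusted p = 0.124), and leaving out control replicate 3 or any of the knockdown libraries ended the call as well.

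MYCN, which is normally active in neural and embryonic tissue, had 26, 21 and 13 counts in the controls against 51, 56 and 44 after knockdown. Its lowest knockdown library thus held more reads than its highest control library. In CPM these were 0.207 ± 0.075 and 0.552 ± 0.055 (SD, n = 3 each), a 2.66-fold higher level with a log2 fold change of 1.42 ± 0.27 (SE; edgeR adjusted p = 0.00259). MYCN kept its call in all 16 alternatives that tested it. Its level in the knockdown remained far below that of MYC, at 0.212 against 77.0 RPKM. The gene lies on chromosome 2 (15940564 to 15947007, plus strand), and 3.77% of its exon bases are shared with the antisense gene MYCNOS, which had 26 counts over all libraries. Genes under 1 CPM were called higher more often than lower in this comparison, 13.5% against 5.21% of the 5179 such genes.

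MAX, the obligate partner of MYC and of its antagonists, was nearly level. It stood at 73.9, 70.0 and 69.8 CPM in the controls and at 74.2, 77.3 and 75.6 CPM in the knockdown, so the groups did not overlap, although the highest control nearly met the lowest knockdown library. Its log2 fold change of 0.09 ± 0.08 (SE) was not called (edgeR adjusted p = 0.407). MAX lies on chromosome 14 (65006174 to 65102695, minus strand) and has 19 annotated transcripts, which gene counts do not separate.

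Among the MXD antagonists, MXD3, a repressor described in proliferating cells, stood at 225, 249 and 240 CPM in the controls and at 298, 290 and 282 CPM in the knockdown. The lowest knockdown library was above the highest control library. The means of 238 ± 11.8 and 290 ± 7.8 CPM (SD, n = 3 each) differed 1.22-fold, with a log2 fold change of 0.28 ± 0.08 (SE; edgeR adjusted p = 0.0171). This call was lost in 4 of 17 alternatives: with the replicate number as a block (edgeR adjusted p = 0.0725), without control replicate 1 (0.0655), without control replicate 3 (0.0736) and without FBL knockdown replicate 2 (0.0538).

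The MXD3 count is uncertain for another reason. On chromosome 5 (177301461 to 177312757, minus strand) its exons share 22.5% of their bases with PRELID1, which encodes a mitochondrial lipid transfer protein and runs on the opposite strand, and 18.0% with RAB24 on the same strand. PRELID1 had 194407 counts over all libraries beside 148902 for MXD3. PRELID1 rose as well, at a log2 fold change of 0.32 ± 0.08 (SE; edgeR adjusted p = 0.00818). RAB24 had 149 counts and did not pass. Since RAB24 runs on the same strand, reads in the bases it shares with MXD3 cannot be assigned under any strand setting. The strand setting of the counting is not given in the sources used here, so reads in the shared bases cannot be assigned to MXD3 or PRELID1, while reads over the rest of the MXD3 exons do not meet PRELID1.

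MXD4, an antagonist associated with differentiated cells, had the widest spread of the abundant members. It stood at 216, 372 and 280 CPM in the controls and at 390, 317 and 334 CPM in the knockdown. Control replicate 1 was the lowest of the 6 libraries, while control replicate 2 lay inside the knockdown range. Its log2 fold change of 0.26 ± 0.17 (SE) was not called (edgeR adjusted p = 0.25). It became 0.48 (edgeR adjusted p = 0.00225) without control replicate 2 and 0.09 (adjusted p = 0.65) without control replicate 1, so these libraries set the value.

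MXI1 and MXD1, the other MXD genes, were weaker. MXI1, also known as MXD2, stood at 9.68, 8.49 and 9.50 CPM in the controls and at 9.79, 10.9 and 10.1 CPM in the knockdown. The groups did not overlap, and the log2 fold change of 0.15 ± 0.10 (SE) was not called (edgeR adjusted p = 0.266). MXD1, which is induced when myeloid cells mature, ranged from 1.65 to 2.08 CPM in the controls and from 1.66 to 2.21 CPM in the knockdown, with overlapping groups (log2 fold change 0.12 ± 0.16, adjusted p = 0.611).

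MNT, a widely expressed antagonist of MYC, and MGA, a large protein with both a T-box and a helix-loop-helix domain that sits in a Polycomb complex, did not pass the test. MNT stood at 12.4, 15.9 and 12.5 CPM in the controls and at 13.9, 12.1 and 11.98 CPM in the knockdown. The groups overlapped, with a log2 fold change of -0.10 ± 0.12 (SE; edgeR adjusted p = 0.552) that became 0.024 (edgeR adjusted p = 0.883) without control replicate 2. MGA had 169, 138 and 209 counts in the controls and 113, 151 and 130 in the knockdown over 17651 exon bases, a low number for its length. With a log2 fold change of -0.29 ± 0.18 (SE; edgeR adjusted p = 0.24) it passed only without control replicate 2, at -0.43 (adjusted p = 0.0468).

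MLX stood at 100, 101 and 96.8 CPM in the controls and at 94.4, 92.3 and 93.2 CPM in the knockdown. All knockdown libraries were lower than all controls by a narrow margin, and the log2 fold change of -0.09 ± 0.07 (SE) was not called (edgeR adjusted p = 0.369). MLX shares 18.1% of its exon bases with PSMC3IP on the opposite strand, whose log2 fold change was -0.05 ± 0.08. MNT shares 12.2% with an antisense gene, and the remaining members share under 5% with any one neighbour.

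**Figure D2:**
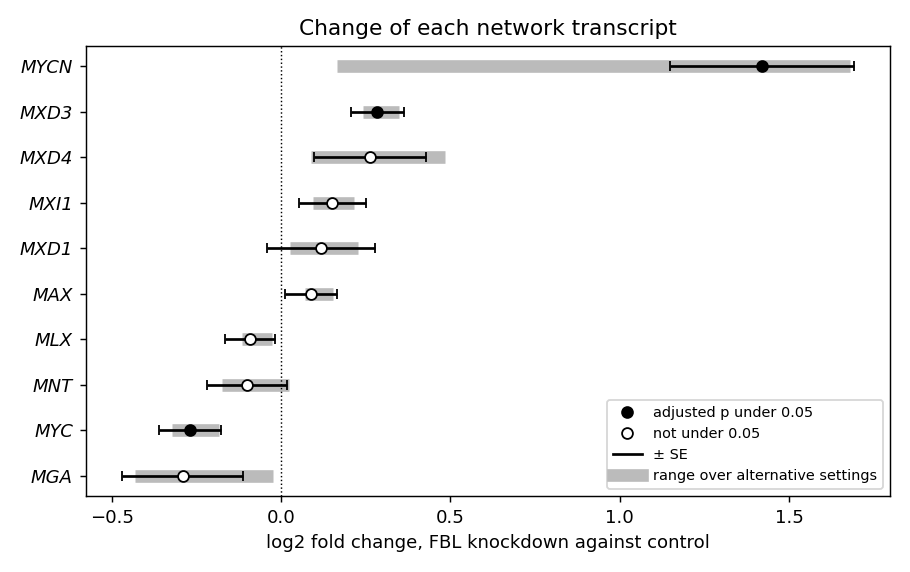
Log2 fold change of each network transcript in FBL knockdown against control (points, ± SE), filled where the adjusted p was below 0.05, with grey bars for the range over the alternative settings. MYCN, MXD3 and MYC are filled. The bars of MYCN, MXD4 and MGA are wide, from 0.17 to 1.68, from 0.09 to 0.48 and from -0.43 to -0.02. The low end for MYCN and the upper end for MGA come from adding 1 to RPKM values that are at or below 0.230.

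The balance between MYC and its antagonists was described per library from the RPKM values, with no test, since the members were chosen with earlier results of these data known. MYC was 2.03, 2.15 and 1.85 times the level of MXD3 in the controls and 1.35, 1.42 and 1.35 times in the knockdown. Relative to MXD4 it was at 2.90, 1.97 and 2.18 in the controls and 1.41, 1.78 and 1.56 in the knockdown. The 6 antagonists MXD1, MXI1, MXD3, MXD4, MNT and MGA summed to between 78.1 and 106 RPKM in the controls and between 104 and 119 RPKM in the knockdown, and MXD3 and MXD4 made up 95.0% to 96.5% of that sum. MYC over that sum went from 1.03 ± 0.09 to 0.706 ± 0.048 (SD, n = 3 each). MYC over MAX went from 5.79 ± 0.69 to 4.52 ± 0.17. In each of these 4 ratios the groups did not overlap. All share the MYC level, which itself did not overlap, so they are not 4 separate observations. MXD3 and MAX did not overlap either and were higher in the knockdown, which fixed the separation of their ratios. The sum over all 10 members was 224 ± 22.8 RPKM in controls and 226 ± 10.6 RPKM in the knockdown. The size of each ratio depends on the gene lengths used. The ratios with MXD3 and with the sum carry the uncertainty of the MXD3 count, and mRNA ratios say nothing of the dimers formed.

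**Figure D3:**
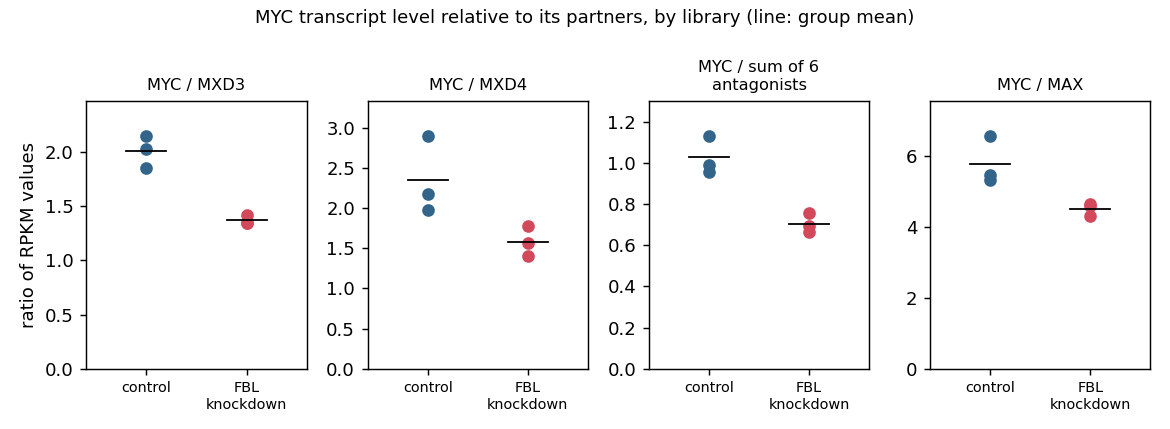
Ratio of the RPKM of MYC to that of MXD3, of MXD4, of the 6 antagonists together and of MAX, in each of 3 control (blue) and 3 FBL knockdown (red) libraries, with a line at the group mean. In each panel all knockdown points lie below all control points, for example 0.664 to 0.758 against 0.958 to 1.13 for the sum of antagonists. The panels share the MYC values, which were themselves lower in every knockdown library than in any control.

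Some members carry in their own promoter the sequence that the network binds. RefSeq windows of GRCh38.p14, from 250 bases before to 50 bases after a transcription start, were available for 9 members and searched for CACGTG, which reads the same on both strands. MXD4, MNT and MLX each held 1 copy, while no match was found in the windows of MYCN, MAX, MXD1, MXI1, MXD3 and MGA. A match in a window was held by 12.4% of the 11345 tested genes with a window and by 8.77% of all 27305 genes with one. The 30 bases around each copy are shown, with the E-box in capitals, because this is the sequence that MYC, MXD and MNT dimers with MAX recognise.
MXD4: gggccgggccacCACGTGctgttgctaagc
MNT: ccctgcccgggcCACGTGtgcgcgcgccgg
MLX: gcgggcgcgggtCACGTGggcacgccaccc
They lie at chr4:2262330-2262359 (minus strand, E-box beginning 238 bases before the start), chr17:2401236-2401265 (minus strand, 193 bases before) and chr17:42567038-42567067 (plus strand, 50 bases before). The 3 genes with a match were among the 7 members that did not pass the test, and binding was not measured here.

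Beyond the 10 members, 12 lists of genes around the network were read from the same fit. They were written from general knowledge, and with earlier results of these data known. Each count below stands against 17.0% lower and 15.8% higher over all tested genes, and for lists of abundant genes against about 27.7% lower and 17.0% higher among the 5482 genes between 10 and 100 CPM. Of the related family members, MYCL, a paralogue of MYC, rose from 1.96, 1.99 and 1.94 CPM to 3.12, 3.63 and 3.19 CPM (log2 fold change 0.76 ± 0.12, edgeR adjusted p = 0.00104). Like MYCN it was a weak transcript that was higher in every knockdown library. MLXIP, which encodes the MLX partner MondoA, was at -0.17 ± 0.08 and did not pass (edgeR adjusted p = 0.148). MLXIPL had no count in 5 of 6 libraries and was not tested.

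Cofactors that MYC recruits were lower more often than higher: 9 of 18 fell, 1 rose and the median log2 fold change was -0.25. Of these 18 genes 15 were at 10 CPM or more, a range in which 27.7% to 27.8% of all genes fell. PAF1, a subunit of an elongation complex, fell from 27.3 ± 3.6 to 11.5 ± 1.2 CPM (SD, n = 3 each), a log2 fold change of -1.25 ± 0.12. The AAA ATPases RUVBL2 (-0.90 ± 0.14) and RUVBL1 (-0.78 ± 0.10) fell too. The acetyltransferase CREBBP rose (0.50 ± 0.11). For these 4 genes the edgeR adjusted p ranged from 5.33e-05 to 0.00677.

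The SIN3 and HDAC corepressor is what MXD and MNT proteins recruit to DNA. Its list held 15 genes, of which 9 fell and none rose (median -0.33). At 10 CPM or more lay 12 of the 15, and 27.7% to 27.8% of all genes that abundant fell. SUDS3, a bridging subunit, went from 15.05 ± 1.10 to 7.60 ± 0.47 CPM (SD, n = 3 each; log2 fold change -0.99 ± 0.10). ING2 (-0.78 ± 0.16), the deacetylase HDAC1 (-0.70 ± 0.15) and the histone chaperone RBBP7 (-0.61 ± 0.09) also fell, at adjusted p from 7.61e-05 to 0.00407 in edgeR's test. The scaffolds SIN3A (0.07 ± 0.10) and SIN3B (-0.03 ± 0.08), named after their values were seen, did not pass (adjusted p = 0.612 and 0.789). HDAC1 and RBBP7 are also subunits of other chromatin complexes.

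In the Polycomb complex that contains MGA, 3 of 10 genes rose and 2 fell, with a median of 0.20, beside 15.8% higher and 17.0% lower over all genes. Of the 10 genes 7 were at 10 CPM or more, where 13.6% to 17.0% of all genes rose and 27.7% to 27.8% fell. RYBP (0.39 ± 0.10), YAF2 (0.36 ± 0.11) and the E2F partner TFDP1 (0.32 ± 0.08) rose, at edgeR adjusted p between 0.0117 and 0.0254. The calls of YAF2, TFDP1 and RYBP were lost in 6, 3 and 2 of 17 alternatives. The heterochromatin protein CBX1 fell from 23.9 ± 1.0 to 16.5 ± 0.5 CPM (SD, n = 3 each; -0.53 ± 0.08, edgeR adjusted p = 0.000871).

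Among 14 genes that govern the stability of the MYC protein 6 fell and none rose (median -0.16), and 10 of them were at 10 CPM or more, where 27.7% to 27.8% of all genes fell. They included the deubiquitinase USP37 (-0.67 ± 0.16), the kinases AURKA (-0.58 ± 0.10) and PLK1 (-0.43 ± 0.08), which stabilise MYC proteins, and the ubiquitin ligase HUWE1 (-0.54 ± 0.11), at edgeR adjusted p from 0.0011 to 0.00775. FBXW7, the best known ligase for MYC, was at -0.15 ± 0.12 (adjusted p = 0.373) and was named after its value was seen. A list of regulators of the MYC gene or its mRNA had 10 tested genes, and 6 of them fell while none rose (median -0.34), with 8 of the 10 in that same range of abundance. The largest falls were in the mRNA-binding protein HNRNPD (-0.93 ± 0.09), HNRNPK (-0.84 ± 0.10), FUBP1 (-0.74 ± 0.16), which binds single-stranded DNA upstream of MYC, and the insulator protein CTCF (-0.59 ± 0.09). Their edgeR adjusted p lay between 7.26e-05 and 0.00531.

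Many targets that MYC induces were lower in the knockdown. Of 72 such genes, all tested, 50 fell and 0 rose, and the median log2 fold change was -0.48, beside -0.27 for MYC and -0.01 for all tested genes. The share that fell, set against 17.0% over all genes, must be read with abundance, because 27.7% of the 5482 genes between 10 and 100 CPM and 27.8% of the 1724 genes at 100 CPM or more fell. FBL, itself a MYC target, was left out of these lists. Some members have processed pseudogenes that can share reads, among them NPM1, GAPDH, PTMA, HSPD1 and HSPE1. EIF4A1, named after its value was seen, did not pass. It had only 11 to 29 counts a library, so its row says little.

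In the group for nucleolus and translation 15 of 18 fell, with a median of -0.64. Nucleolin (NCL) went from 45.7, 23.8 and 33.8 CPM to 13.1, 13.7 and 14.3 CPM (log2 fold change -1.33 ± 0.19). The knockdown libraries were close together and below all controls, which varied among themselves. The initiation scaffold EIF4G1 (-1.17 ± 0.12), the nucleolar chaperone NOLC1 (-1.14 ± 0.14) and the ribosomal RNA methyltransferase NOP2 (-0.93 ± 0.12) followed. The edgeR adjusted p of these genes ranged from 9.09e-05 to 0.000453.

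In nucleotide and polyamine metabolism 13 of 18 fell, with a median of -0.46. The spermidine synthase SRM (-0.96 ± 0.13) had the largest change, from 525 ± 66.9 to 269 ± 46.3 CPM (SD, n = 3 each). The purine synthesis enzymes GART (-0.69 ± 0.10) and IMPDH2 (-0.64 ± 0.08) and the CTP synthase CTPS1 (-0.64 ± 0.12) fell as well, with edgeR adjusted p from 0.000168 to 0.00224 in these 4 genes. Ornithine decarboxylase (ODC1), a classic MYC target named here after its value was seen, went the other way without passing, from 342, 300 and 321 CPM to 337, 377 and 351 CPM (0.15 ± 0.08, edgeR adjusted p = 0.215).

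In glycolysis, transport and mitochondria 10 of 18 fell, with a median of -0.35. The glycolytic enzymes PGK1 (-0.98 ± 0.09), PKM (-0.80 ± 0.08) and HK2 (-0.77 ± 0.10) and the mitochondrial chaperonin HSPD1 (-0.88 ± 0.14) had the largest falls (edgeR adjusted p from 5.33e-05 to 0.000936). In cell cycle and chromatin 12 of 18 fell, with a median of -0.50. The helicase subunits MCM7 (-1.63 ± 0.12), MCM5 (-1.05 ± 0.10) and MCM4 (-1.02 ± 0.09) led, followed by the co-chaperone FKBP4 (-0.98 ± 0.09), with edgeR adjusted p from 1.73e-05 to 7.26e-05. CDK4, a direct target named after its value was seen, did not pass (-0.16 ± 0.08, edgeR adjusted p = 0.148).

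Genes that MYC is known to repress were higher more often than lower: 7 of 14 tested rose, 2 fell and the median was 0.31, beside 15.8% higher and 17.0% lower over all tested genes. Clusterin (CLU) went from 22.9, 19.8 and 19.6 CPM to 33.9, 39.6 and 34.9 CPM (0.80 ± 0.10). NDRG1 (0.72 ± 0.08), the ferritin heavy chain FTH1 (0.71 ± 0.09), whose many pseudogenes make its count uncertain, and the cell cycle inhibitor CDKN1A (0.59 ± 0.09) rose too, with edgeR adjusted p from 0.000167 to 0.000887. In each of these 4 genes, chosen for the largest change, every knockdown library was above every control library. Over the whole list the groups did not overlap, in either direction, for 10 of 14 tested genes, beside 45.2% of all tested genes.

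Targets of MondoA and MLX, a branch that senses sugar phosphates, rose in 3 of 3 tested cases. Over all tested genes 15.8% rose, and 17.3% of the 6101 genes between 1 and 10 CPM did. The list held only 4 genes, and 1 of them, with 1 to 4 counts a library, was not tested. The arrestin ARRDC4 went from 1.04, 0.768 and 0.791 CPM to 2.39, 2.96 and 2.81 CPM, a log2 fold change of 1.65 ± 0.17 (edgeR adjusted p = 7.5e-05). TXNIP, an inhibitor of glucose uptake, rose from 27.0 ± 3.1 to 35.2 ± 3.2 CPM (SD, n = 3 each; 0.38 ± 0.11, edgeR adjusted p = 0.0174), and KLF10 was at 0.50 ± 0.14 (adjusted p = 0.0208). TXNIP lost its call in 3 of 17 alternatives and KLF10 in 3 of 16. MLX and MLXIP themselves did not pass, as given above.

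**Figure D4:**
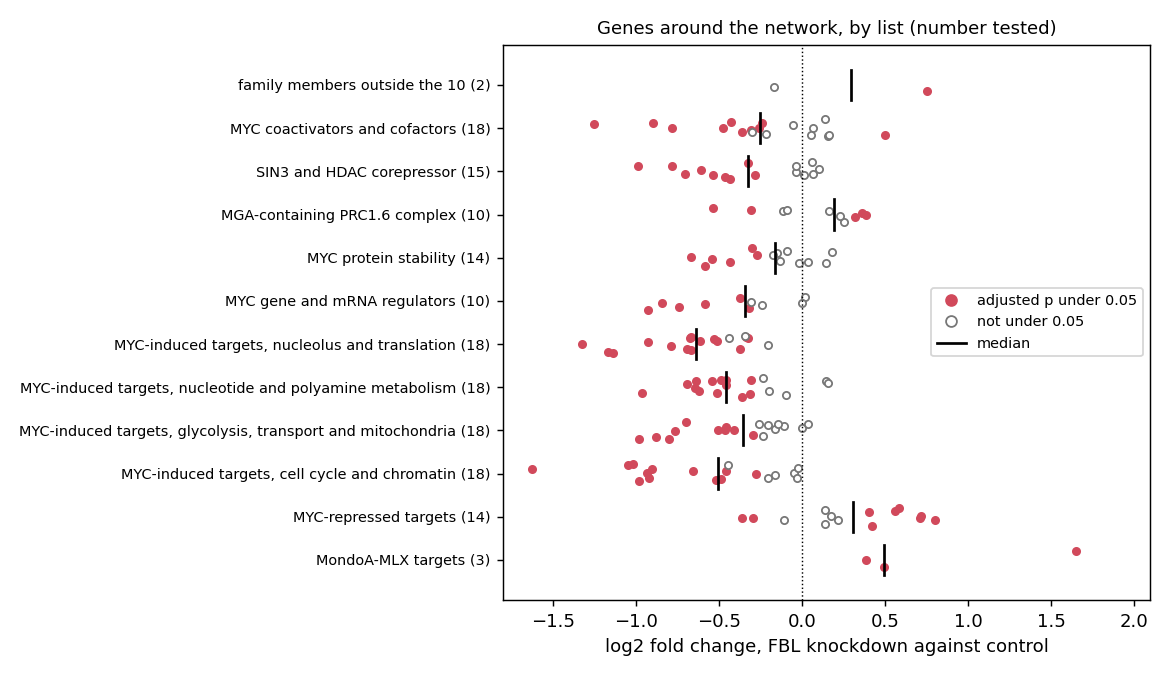
Log2 fold change of the tested genes of 12 lists around the network (red, adjusted p below 0.05; open, not), with a line at each median. The 4 groups of MYC-induced targets have medians from -0.64 to -0.35, and the repressed and MondoA-MLX targets have medians of 0.31 and 0.50.

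The E-box was then searched in the promoters of these genes. Of the 60 MYC-induced targets with a RefSeq window, 25 held CACGTG (41.7%), beside 12.4% of the 11345 tested genes with a window. The targets were also far more abundant (median 93.4 against 8.74 CPM), and the part of abundance in this difference was not tested. All matches upstream of the start are shown for the MYC-induced and MondoA-MLX targets whose change is given above. They are again 30 bases with the E-box in capitals. They set the sites of targets that fell beside those of targets that did not and of a MondoA-MLX target.
SRM: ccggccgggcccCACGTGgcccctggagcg
EIF4G1 distal: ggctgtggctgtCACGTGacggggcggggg
EIF4G1 proximal: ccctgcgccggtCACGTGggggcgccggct
HK2 distal: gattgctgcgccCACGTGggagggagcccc
HK2 proximal: ttccggcgagagCACGTGgagagaatcgtg
HSPD1: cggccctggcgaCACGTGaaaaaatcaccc
MCM7: agtggcgccggtCACGTGgggggcgacgtt
ODC1: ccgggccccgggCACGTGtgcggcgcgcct
CDK4 distal: atgtcaagcggtCACGTGtgatagcaacag
CDK4 middle: atagcaacagatCACGTGgctgccatcgcc
CDK4 proximal: atgggtggcggtCACGTGcccagaacgtcc
ARRDC4: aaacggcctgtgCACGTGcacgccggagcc
They lie on GRCh38.p14 at chr1:11060200-11060229 (SRM, minus strand), chr3:184314450-184314479 and chr3:184314527-184314556 (EIF4G1, plus strand), chr2:74834964-74834993 and chr2:74835009-74835038 (HK2, plus strand), chr2:197500345-197500374 (HSPD1, minus strand), chr7:100101405-100101434 (MCM7, minus strand), chr2:10448024-10448053 (ODC1, minus strand), chr12:57752509-57752538, chr12:57752489-57752518 and chr12:57752394-57752423 (CDK4, minus strand) and chr15:97960481-97960510 (ARRDC4, plus strand). SRM, EIF4G1, HK2, HSPD1 and MCM7 fell, ODC1 and CDK4 did not pass the test, and ARRDC4 rose. CDK4, with 3 copies, held more than any of the targets shown that fell. APEX1, a target of the same list that is not shown and was named after its value was seen, also held 3 upstream. It fell (log2 fold change -0.94 ± 0.09, edgeR adjusted p = 5.6e-05). NOP2 and ODC1 also held a match after the start. Of the other listed genes named above HNRNPD, PLK1, YAF2, GAPDH and HSPE1 held 1 upstream. The copy of HSPE1 is the one shown for HSPD1, read on the other strand. GAPDH (log2 fold change 0.00055) and HSPE1 (-0.14) did not pass the test. A match is a description of the letters and does not define a direct target.

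The share that fell was close in targets with and without the E-box, with no test made. Of the 25 MYC-induced targets with a match 16 fell (64.0%, median log2 fold change -0.37), and of the 35 without one 23 fell (65.7%, median -0.46). Over all tested genes with a window, 22.2% of the 1409 with a match and 19.1% of the 9936 without one fell, while 14.4% and 16.8% rose. The genes with a match were also somewhat more abundant (median 11.9 against 8.36 CPM), whose part in these shares was not tested. The window is short, so E-boxes in first introns or further upstream are not counted.

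The transcripts most like MYC across the 6 libraries were sought among 6394 protein-coding genes at 10 CPM or more, by the root mean square difference of log2 CPM after centring each gene. C19orf12 was nearest (0.019 on the log2 scale), then the transcriptional repressor ZBTB7A (0.043) and the ubiquitin ligase RNF44 (0.045). C19orf12 stood at 26.0, 29.3 and 25.1 CPM in the controls and 22.7, 23.2 and 21.4 CPM in the knockdown, the same pattern with control replicate 2 highest. None of these 3 passed edgeR's test (adjusted p from 0.0527 to 0.124). For MYCN, the member with the smallest p, the nearest were GET1 (0.268), CYFIP2 (0.292) and CMPK2 (0.325), all of which rose (CYFIP2 by 1.16 on the log2 scale, edgeR adjusted p = 4.26e-05). Their direction follows from the search, since genes near a transcript that rose must be higher too.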

How the data were processed

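RNA of 6 Kasumi-1 samples was sequenced, 3 libraries a group. The authors deposited whole-number counts per Ensembl gene with gene lengths, and a table of RPKM values. Per the submitters' processing notes, cutadapt 1.18, HISAT2, featureCounts and edgeR were used with GRCh38. For the annotation release and the strand setting, the entry is not given in the sources used here. When RPKM was recomputed from the counts, 191796 of 191796 deposited values were matched to a relative 1e-06.

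The whole count table was tested in R 4.3.3 with edgeR 4.0.16: filterByExpr (minimum count 10, total 15), TMM scaling, glmQLFit and glmQLFTest with group as the only term. Benjamini-Hochberg adjustment covered 18486 genes. CPM are relative to TMM-scaled totals, and SE derive from the F statistic. The fit was tested on simulated data. DESeq2 1.42.0 and limma 3.58.1 served as alternatives.

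The plan named glmQLFit without its options, and the reported option was chosen after results were seen. In all, 7 edgeR settings were fitted and compared by the number of genes called, which ranged from 6017 to 6061. The default of this version, legacy dispersion, called 6026. The fit without legacy dispersion called 6061 and was adopted because it matched an earlier analysis of these data. It gave the most calls of the 7. MYC, MXD3 and MYCN were called in each of them, and the adjusted p of MYC ran from 0.0426 to 0.0478.

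The members and lists were chosen with earlier results of these data known. All members are named. Each list gives up to 4 genes, those with the largest change past the threshold and a mean of at least 1 CPM, and the likeness search gives 3 genes for MYC and for the member with the smallest p. Genes named outside this rule are marked as such. The labels do not say whether a replicate number marks a shared culture or batch, so the libraries were not paired. Positions come from GENCODE release 29 on GRCh38 and promoter windows from RefSeq.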

Additional observations from a re-analysis of the deposited data

How the results depend on the processing

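A total of 17 alternatives was tried: scaling by RLE, by upper quartile or by library size, testing without a filter, a stricter filter (1 CPM or more in 3 libraries, mean 5 CPM or more), DESeq2, limma voom, limma on log2(RPKM + 1) or log2(RPKM + 0.1), a replicate block, the omission of each library, and the legacy dispersion that is edgeR's default, added after the data were seen (3 members called, MYC adjusted p = 0.04435). The number of members called, 3 in the fit reported, was 1 with the replicate block and 1 with the stricter filter, which did not test MYCN, MXD1 and MGA. With a library left out it ranged from 1 to 4. Over all tested genes the calls were 6061 of 18486 in the fit reported and 3833 of 18486 with the replicate block. They were 4059 of 9186 with the stricter filter, and between 3925 and 6943 with a library left out. The 50 MYC-induced targets called became 41 with the replicate block, and between 40 and 54 with a library left out, 0 of them higher in any alternative. The 49 other listed genes called (15 higher, 34 lower) became 29 with the replicate block and 31 to 48 with a library left out, 31 without control replicate 3. Upper-quartile scaling split these into 18 higher and 24 lower. Over all tested genes that scaling called 3597 higher and 2528 lower, against 2920 and 3141 in the fit reported. The log2 fold change of MNT ran from -0.17 to 0.024 with a library left out and changed sign without control replicate 2, while no other member changed sign in any alternative. The calls of MYC and MXD3 were lost in 13 and 4 of 17. FBL kept its call throughout. Of 44 named list genes 39 kept direction and call in every alternative that tested them. Deviations of same-numbered libraries correlated at -0.28, -0.20 and 0.045. With 3 libraries a group these values cannot tell whether a number marks a shared culture or batch. The labels do not say that it does, so the block was not used in the fit reported. MYCN, MXD1 and MGA rested on 13 to 209 counts a library, which limits their precision.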
